A study of Mus musculus with 6 samples.

Results

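Homeobox genes encode transcription factors that bind DNA through a homeodomain and set the positional and tissue identity of cells. Those described here were chosen by name: protein-coding genes of the Hox clusters, of the Dlx, Msx, Meis, Pbx, Irx, Pitx, Prrx, Lhx and Meox families, and of the family of Six4. GENCODE M21 lists 82 such genes on mm10, and 58 of them were among the 21785 gene rows of the deposited table. Hox genes lie in 4 clusters, named a to d, and a gene's number gives its place in its cluster. Meis and Pbx proteins, which like Irx belong to the wider TALE class, bind DNA together with Hox proteins. Dlx and Msx genes are textbook targets of bone morphogenetic proteins (BMPs) in the developing skeleton, limb and tooth.

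The genes were measured by sequencing of total RNA from cultured mouse PASMCs, smooth muscle cells of the pulmonary artery, which contract to narrow the vessel; they had been grown from C57BL/6 lungs in which iron particles were placed through that artery. Both groups had 3 samples and were kept for 48 h in medium without supplements. The stimulated group then received BMP9 at 1 ng/mL and BMP10 at 5 ng/mL, both circulating ligands of the TGF-beta family, for 6 h, and the control group received neither. Whether the samples were separate cultures or animals is not labelled, and the spread behind each p-value is therefore that between these samples, which may be technical.

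Levels are normalized read counts, given per library in the order of replicates 1, 2 and 3 or as mean ± SD (n = 3 per group). They sum to between 27295973 and 31903795 per library, with an estimated 23300000 to 54400000 reads behind them (the most in stimulated replicate 3). Changes are stimulated minus control on the log2(value + 1) scale ± SE, a scale that understates the change of low genes. Adjusted p-values come from limma with Benjamini-Hochberg adjustment over the 21743 genes tested, and a gene rose or fell only where this was under 0.05. The answer to BMP was seen in each stimulated library: Id1, a direct target gene, was at 436, 691 and 526 in controls and at 1848, 2736 and 2076 after stimulation. Smooth muscle markers were present in controls, with Acta2 (smooth muscle actin) at 23470 to 37627 and Myh11 (smooth muscle myosin) at 2154 to 3487. Of 8 such markers 4 rose (50%, beside 13.4% of all genes tested). Acta2 was among them (1.76 ± 0.30, adjusted p = 0.0121 by limma). It did not pass without control replicate 3 (0.0511) or without stimulated replicate 3 (0.0661). Myh11 did not pass in the main fit (adjusted p = 0.374 by limma) or in any of 18 alternative fits. Markers of other cells were present too. The summed level of 8 lung fibroblast markers was 294898 to 404302 in controls and 255296 to 461187 after stimulation. The 8 smooth muscle markers summed to 34382 to 53248 and 83819 to 178986. For 10 lung epithelial markers the sums were 8859 to 37073 and 3428 to 36860. Sums over different genes do not give the share of each cell type. The summed level of 10 macrophage and leukocyte markers was 96315 to 165735 in controls and 143701 to 214384 after stimulation. That of 12 endothelial markers was 12655 to 46875 and 10290 to 45145. In both groups the library numbered 2 had the most of each of these 12 markers. In bulk RNA, a change in the number of cells of a type cannot be told apart from a change in RNA per cell.

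Sequences upstream of the RefSeq start sites (GRCm38.p6) are shown for 3 members that moved. They were picked because 2 of them hold the same BMP-associated element although their levels went in opposite directions. Capitals mark GGCGCC, the GC-rich element bound by BMP-activated SMADs. Dlx2 rose, and its stretch is chr2:71546755-71547004 on the minus strand. Pbx4 fell, and its stretch is chr8:69832374-69832490 on the plus strand. The element lies at -99 to -94 from the start in Dlx2 and at -188 to -183 in Pbx4. Parts covered by annotated exons are left out, so the Pbx4 and Meis1 stretches stop short of their RefSeq starts. Meis1, which also fell, has no match in chr11:19018986-19019219 on the minus strand.
Dlx2: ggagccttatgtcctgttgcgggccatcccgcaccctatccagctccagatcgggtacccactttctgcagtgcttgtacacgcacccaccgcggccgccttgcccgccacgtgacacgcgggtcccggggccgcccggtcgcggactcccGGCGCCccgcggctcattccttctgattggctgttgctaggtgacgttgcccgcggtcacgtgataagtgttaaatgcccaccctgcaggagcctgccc
Pbx4: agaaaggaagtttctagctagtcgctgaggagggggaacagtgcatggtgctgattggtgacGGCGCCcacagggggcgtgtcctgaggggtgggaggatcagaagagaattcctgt
Meis1: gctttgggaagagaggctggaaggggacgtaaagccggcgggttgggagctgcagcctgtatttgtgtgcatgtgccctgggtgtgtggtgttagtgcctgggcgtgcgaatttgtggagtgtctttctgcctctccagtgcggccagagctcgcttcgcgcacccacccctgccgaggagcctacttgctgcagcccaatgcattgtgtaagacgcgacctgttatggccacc

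The window searched ran from 250 bases before to 50 bases after each start, on both strands. RefSeq windows matched 35 of the 58 genes. GGCGCC was in 4 of their 40 windows (10%), against 11.9% of all 32851 windows of this length. Among the windows of members past the threshold, 2 of 9 held it (22.2%). It was also in the windows of Lhx2 and Hoxa10, which did not pass, and Lhx4 had no match. The longer composite SMAD element was in none of the 40, against 0.667% of all. The short SMAD box CAGAC, which in reverse complement shares letters with the end of that composite, was in 21 (52.5%), against 49.6%. A match describes the letters and does not show that a factor binds there.

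**Figure D1:**
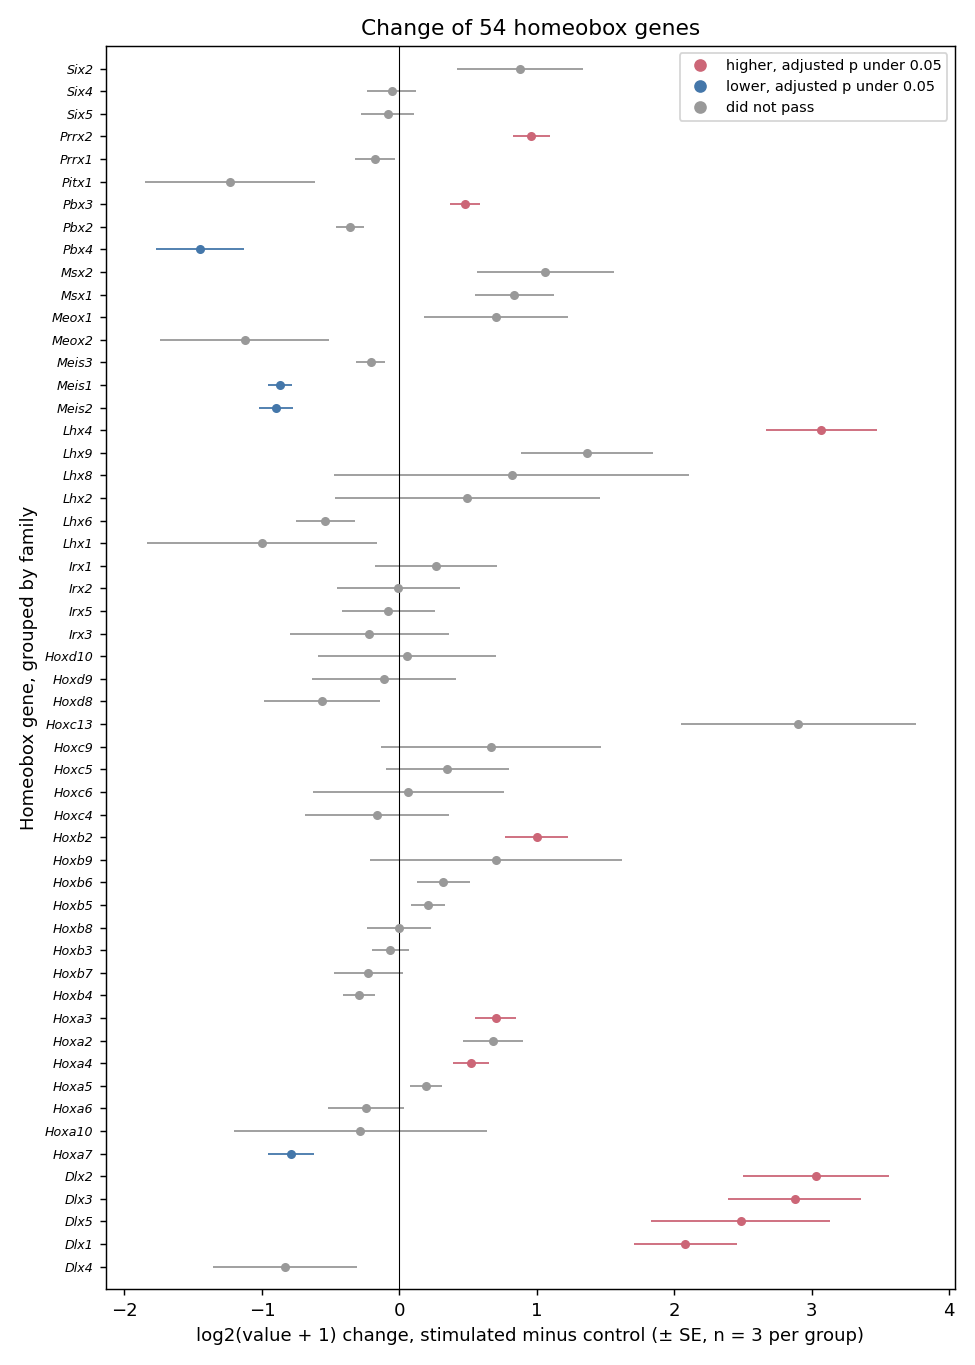
Change of the 54 homeobox genes described one by one on the log2(value + 1) scale (x axis, stimulated minus control, point ± SE, n = 3 per group), grouped by family on the y axis. Red points rose and blue points fell at an adjusted p under 0.05 by limma, and grey points did not pass. The rises reach 3.07 (Lhx4), and the blue points are Meis1, Meis2, Pbx4 and Hoxa7.

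Of 5 Dlx genes 4 (all but Dlx4), and Hoxa3, Hoxa4, Hoxb2, Lhx4, Pbx3 and Prrx2 were higher after stimulation, and Meis1, Meis2, Pbx4 and Hoxa7 were lower. All 58 members passed the filter on low values (a mean of at least 1), 11 of them with a mean under 10. Of the 58, 11 rose, 5 fell and 42 did not pass, so that 27.6% were called. Of all genes tested, 13.4% were called (8.61% higher and 4.75% lower), and of protein-coding genes 16.9%. The median change of the members was 0.05, beside -0.03 over all genes. The groups did not overlap for 23 members (39.7%), against 33.2% of all genes tested. Same-numbered libraries correlated, though the labels give no pairing, and the replicate number was also fitted as a block. All 16 calls remained, Hoxa2, Hoxc13 and Msx2 were called higher and Pbx2 and Meox2 lower. This gave 21 members, 14 higher and 7 lower, with 26.8% of all genes called (14.9% higher and 12% lower). With every library scaled to an equal total, which moves the median of all genes to -0.20, 6 members were called higher and 7 lower, beside 5.22% and 10.4% of all genes. The sign of change of the 16 called members was the same in each alternative. Among genes with a mean of at least 10, 15 of 47 members were called, 9 higher and 6 lower, beside 19.4% of all such genes (12.4% higher and 7.04% lower). Without stimulated replicate 3, 3 members were called higher and 2 lower, beside 4.23% of all genes (3.04% higher and 1.19% lower). The count was 9 when control replicate 1 was left out (5.36% of all genes), 7 for control replicate 3 (5.35%) and 10 for stimulated replicate 2 (9.47%), so that fewer calls were made over all genes too.

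**Figure D2:**
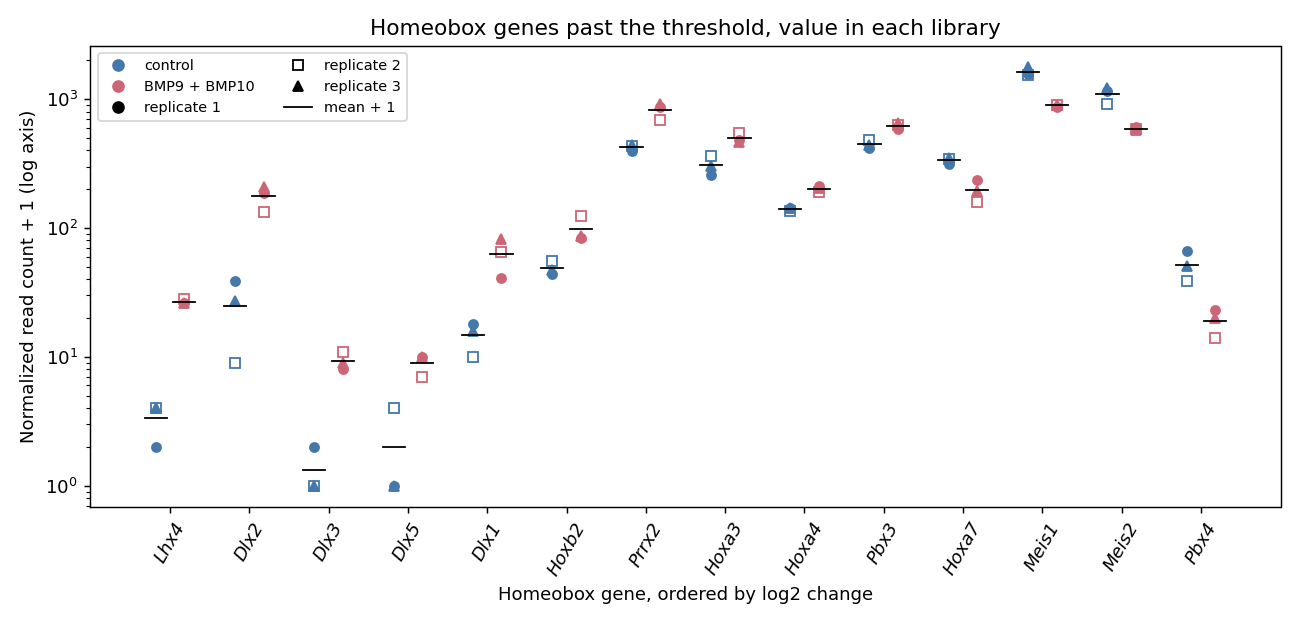
Normalized read count + 1 (y axis, log scale) in each library for 14 homeobox genes past the threshold, ordered by log2 change, with controls in blue, stimulated samples in red, a symbol for each replicate and the group mean as a line. The groups do not overlap for any of the 14, which the threshold favours, and the levels run from 0 for Dlx3 to 1779 for Meis1.

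The Dlx family held several of the largest fitted rises, whose members act in skeletal, craniofacial and forebrain development. Dlx2 was at 38, 8 and 26 in controls and at 186, 133 and 206 after stimulation. Its lowest stimulated library lay above its highest control, and it rose by 3.03 ± 0.53 (adjusted p = 0.0132 by limma). Its neighbour Dlx1, 9.43 kb away on chromosome 2 and on the opposite strand, was at 17, 9 and 15 and then at 40, 64 and 81. Dlx1 rose by 2.08 ± 0.37 (adjusted p = 0.0144 by limma), and in both genes replicate 2 was the lowest control. Exons of the antisense gene Dlx1as cover 6.21% of the exonic bases of Dlx1. Dlx1as itself was at 28, 24 and 21 in controls and 11, 27 and 20 after stimulation (-0.39 ± 0.38, adjusted p = 0.551 by limma).

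Dlx3 and Dlx5, known from tooth, skin and bone formation, were near the lower end of what was measured. Dlx3 was listed at 1, 0 and 0 in controls and at 7, 10 and 8 after stimulation, and rose by 2.88 ± 0.48 (adjusted p = 0.0116 by limma). Dlx5 was listed at 0, 3 and 0 and then at 9, 6 and 9, and narrowly passed (2.48 ± 0.65, adjusted p = 0.0492 by limma). At such values the fitted change depends on the pseudocount: with 0.1 in place of 1 it was 5.23 for Dlx3 and 4.66 for Dlx5, and the call of Dlx5 was lost (adjusted p = 0.0864). Dlx4, 15.2 kb from Dlx3, was at 5, 2 and 4 in controls and 1, 1 and 3 after stimulation (-0.83 ± 0.53, adjusted p = 0.354). With stimulated replicate 3 left out, Dlx2 (adjusted p = 0.075 by limma) and Dlx3 (0.0626) lost their calls. Dlx1 was not called without control replicate 3 (0.051), without stimulated replicate 3 (0.0777) or without both replicate 2 libraries (0.0692), and Dlx3 was not called in the last of these either (0.0595). Dlx5 kept its call without control replicate 2 and lost it without any other single library (0.0873 to 0.166).

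The Msx genes, homeodomain repressors and well known BMP targets in limb and tooth, had higher means after stimulation without passing the test. Msx1 was at 103, 87 and 104 in controls and at 118, 261 and 175 after stimulation. The groups did not overlap, but the stimulated libraries differed among themselves by more than the controls did, and the change was 0.84 ± 0.29 (adjusted p = 0.107 by limma, 0.055 with the replicate block). Without stimulated replicate 1 Msx1 was called (1.12, adjusted p = 0.0376). Msx2 was at 85, 30 and 74 in controls and at 183, 68 and 142 after stimulation. Here replicate 2 was the lowest library of both groups, and within each replicate number the stimulated library was higher, by 1.10, 1.15 and 0.93 on the log2 scale. The change of 1.06 ± 0.50 did not pass by limma (adjusted p = 0.215). It passed with the replicate block (0.00486) and without both replicate 2 libraries (0.0496).

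Among LIM-homeodomain genes, which pair a homeodomain with zinc-binding LIM domains, 1 of 6 rose. Lhx4, known from pituitary development, was at 1, 3 and 3 in controls and at 25, 27 and 25 after stimulation. The 3 stimulated libraries were close to each other and far above the controls, and Lhx4 rose by 3.07 ± 0.41 (adjusted p = 0.00511 by limma). It passed in each of the 18 alternatives tried, with changes of 2.08 to 3.55. Its control values were low, and the smallest change came with a pseudocount of 5 and the largest with 0.1. Lhx9 was at 20, 7 and 6 and then at 22, 24 and 34 (1.37 ± 0.48, adjusted p = 0.113). Lhx6, the highest of them per kilobase of exon in controls, was at 90, 78 and 92 in controls and 74, 51 and 55 after stimulation (-0.54 ± 0.21, adjusted p = 0.151). Of Lhx1, Lhx2 and Lhx8, none was called, and Lhx8 was at 52, 1 and 48 in the stimulated libraries.

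The paired-related genes Prrx1 and Prrx2 mark embryonic mesenchyme, and only the second rose. Prrx2 was at 392, 430 and 442 in controls and at 868, 689 and 921 after stimulation, a rise of 0.96 ± 0.14 (adjusted p = 0.00639 by limma). It passed in each of the 18 alternatives, with changes of 0.79 to 1.10. Prrx1 was at 4439, 3726 and 4950 and then at 3791, 3317 and 4480, with groups that overlapped (-0.18 ± 0.15, adjusted p = 0.475). The difference between their changes was not tested. Per kilobase of exon, Prrx1 stood at 395 ± 55.6 in controls and Prrx2 at 215 ± 13.3. After stimulation they were at 349 ± 52.8 and 421 ± 62.

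Among Hox genes, Hoxa3, Hoxa4 and Hoxb2 rose and Hoxa7 fell. Most Hox transcripts came from middle numbers of the Hoxa and Hoxb clusters. Per kilobase of exon, Hoxa5, which is required for normal lung development, had the highest level in controls (472 ± 40.4). It was followed by Hoxb7 (311 ± 73.4), Hoxb4 (256 ± 29.2), Hoxb6 (199 ± 24.3) and Hoxb5 (196 ± 17.1). The SDs of Hoxb7 and Hoxb4 overlapped, as did those of Hoxb6 and Hoxb5. Hoxa7 stood at 116 ± 6.78 and Hoxb8 at 114 ± 20. Hoxb2, the first Hoxb gene measured, was lower, at 13.7 ± 1.63. The control levels of Hoxc and Hoxd genes ran from 0.549 ± 0.475 (Hoxc9) to 12.6 ± 3.46 (Hoxd8) per kilobase. Hoxa10, the last Hoxa gene measured, was at 1.53 ± 1.33.

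**Figure D3:**
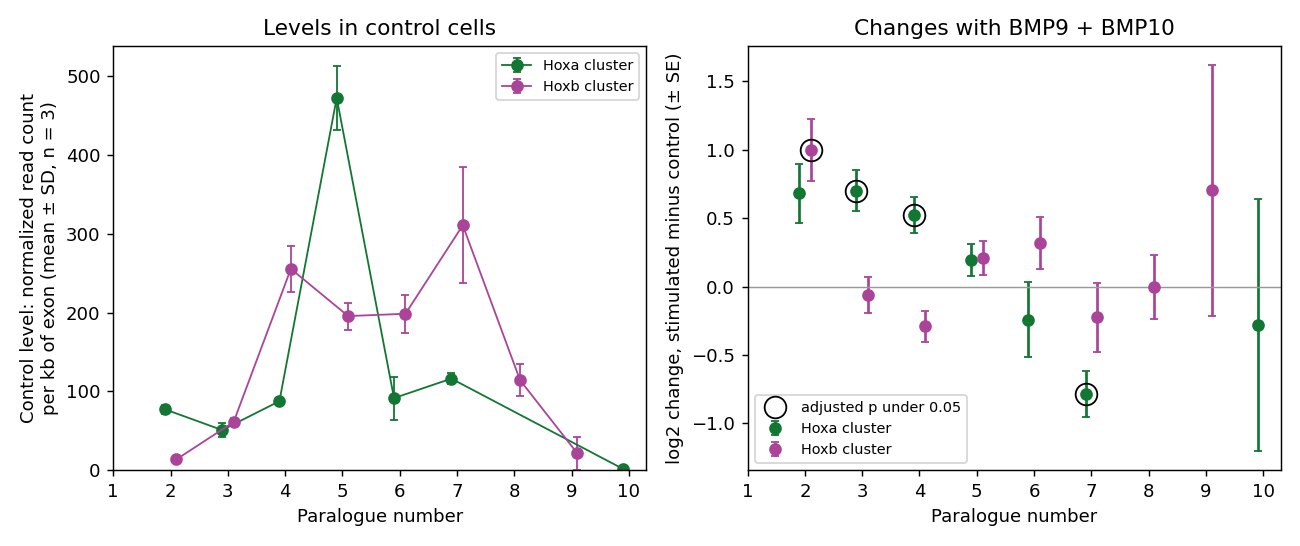
Hoxa (green) and Hoxb (purple) genes by paralogue number (x axis): the left panel gives the control level in normalized read counts per kb of exon (mean ± SD, n = 3), and the right panel the log2(value + 1) change ± SE, with rings around genes at an adjusted p under 0.05. Levels peak at Hoxa5 (472), and the Hoxa changes shown lie between 0.70 (Hoxa3) and -0.79 (Hoxa7).

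The Hoxa genes from Hoxa2 to Hoxa10 span 78.4 kb of chromosome 6. In order of gene number they were 0.68, 0.70, 0.52, 0.19, -0.24 and -0.79 for Hoxa2 to Hoxa7, given as a description, and Hoxa10, at low values, was at -0.28 ± 0.92. Hoxa3 was at 258, 358 and 304 and then at 480, 541 and 467, a rise of 0.70 ± 0.15 (adjusted p = 0.0253 by limma). Hoxa4 was at 143, 134 and 142 and then at 209, 190 and 204, a rise of 0.52 ± 0.13 (adjusted p = 0.0425 by limma) that was similar in the 3 replicate numbers (0.54, 0.50 and 0.52). Their neighbour Hoxa2 was at 136, 148 and 128 and then at 226, 165 and 287. Its groups did not overlap, and its change of 0.68 ± 0.22 missed the threshold (adjusted p = 0.0868 by limma, 0.0474 with the replicate block).

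Hoxa5, at 800, 941 and 919 in controls and 988, 920 and 1134 after stimulation, and Hoxa6, at 54, 101 and 85 and then 56, 71 and 70, overlapped between groups and did not pass. Hoxa7, by contrast, was at 312, 343 and 348 and then at 234, 159 and 193, and fell by 0.79 on the log2 scale (SE 0.17, adjusted p = 0.0251 by limma). Hoxa3 and Hoxa4 were not called with equal library totals (adjusted p = 0.063 and 0.122), while Hoxa7 was. By limma, Hoxa3 was not called without control replicate 1 (0.0819), control replicate 3 (0.0898) or any stimulated replicate (0.057, 0.0665 and 0.088). Hoxa4 was not called when any 1 of the 6 libraries was left out (0.0657 to 0.151). Hoxa7 was not called without any control replicate (0.0734, 0.0604 and 0.0978) or stimulated replicate 3 (0.101). In all of these fits the direction was the same. Annotated antisense exons overlap 25.4% of the exonic length of Hoxa3, 20.4% of Hoxa7 and 16% of Hoxa4. They belong to Hoxaas3 for Hoxa7, to Gm29430 for Hoxa4, and to both of these, Hoxaas2 and 5730596B20Rik for Hoxa3. Levels are given only for Hoxaas2, named after its values were seen. Hoxaas2 was at 138, 142 and 155 in controls and 385, 385 and 378 after stimulation (1.40 ± 0.12, adjusted p = 0.00111 by limma). On the same strand, exons of Gm28308 overlap 15% of the exonic length of Hoxa2 and 8.01% of Hoxa3. The library kit keeps strand, but no source used here gives the strand setting of the counting, and reads of Hoxa3 and Hoxaas2 cannot be told apart with certainty. The same limit holds for Hoxa4 and Hoxa7 with their antisense genes.

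In the Hoxb cluster 1 of 8 genes rose. Hoxb2 was at 43, 54 and 46 in controls and at 83, 123 and 86 after stimulation, a rise of 1.00 ± 0.23 (adjusted p = 0.0325 by limma). It missed the threshold under equal totals (adjusted p = 0.0531) and when control replicate 1 (0.111), control replicate 3 (0.106) or any stimulated replicate (0.0519, 0.0735 and 0.0995) was left out. Exons of Hoxb3os overlap 27.3% of the exonic length of Hoxb2, and this antisense gene was at 25, 31 and 30 and then at 24, 36 and 34. Hoxb4 was at 669, 575 and 723 in controls and 559, 518 and 523 after stimulation. Its groups did not overlap, and the change was -0.29 ± 0.12 (adjusted p = 0.15 by limma, and 0.0369 with equal library totals). The changes of Hoxb3 and Hoxb5 to Hoxb8 lay between -0.23 and 0.32, and no test was passed.

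Hoxc and Hoxd genes gave no call among 8. Hoxc13, a gene of hair and nail formation at the far end of its cluster, was at 8, 0 and 8 in controls and at 38, 28 and 29 after stimulation. All stimulated libraries lay above all controls, and the change of 2.90 ± 0.86 missed the threshold (adjusted p = 0.0687 by limma) but passed with the replicate block (0.0184), with a pseudocount of 5 (0.0242) and without control replicate 2, the library at 0 (0.0212). Hoxc4 (20, 11 and 30, then 32, 13 and 11) and Hoxd8 (35, 25 and 44, then 40, 19 and 15) had adjusted p-values of 0.873 and 0.438 by limma. The other 5 had means of 12 or less in both groups.

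The TALE cofactors of Hox proteins held most of the falls described: Meis1, Meis2 and Pbx4 fell, and Pbx3 rose. Meis1 was at 1574, 1552 and 1779 in controls and at 873, 906 and 900 after stimulation. The stimulated libraries were nearly equal, and Meis1 fell by 0.87 on the log2 scale (SE 0.09, adjusted p = 0.00215 by limma). Meis2 was at 1149, 923 and 1228 and then at 606, 583 and 571, and fell by 0.90 (SE 0.12, adjusted p = 0.00626 by limma). Both passed in each of the 18 alternatives. Meis3 was at 860, 746 and 882 and then at 764, 695 and 689, and did not pass (-0.21 ± 0.11, adjusted p = 0.243). Per kilobase of exon, Meis1 went from 155 ± 11.9 to 84.8 ± 1.67 and Meis2 from 91.3 ± 13.1 to 48.7 ± 1.48, while Meis3 stood at 261 ± 23 and 226 ± 13.1.

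Pbx4, with the lowest level of the family per kilobase of exon, was at 65, 38 and 50 in controls and, after stimulation, at 22, 13 and 19, and fell by 1.45 (SE 0.32, adjusted p = 0.0288 by limma). Pbx2 was at 1092, 1103 and 1177 and then at 973, 838 and 823. Its change of -0.36 ± 0.10 did not pass (adjusted p = 0.0581 by limma, 0.0277 with the replicate block). Pbx3 went the other way: it was at 415, 484 and 436 in controls and at 585, 624 and 648 after stimulation, and rose by 0.48 ± 0.11 (adjusted p = 0.0296 by limma).

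With equal library totals the rise of Pbx3 was not called (0.30, adjusted p = 0.109). By limma, Pbx3 and Pbx4 were not called without control replicate 1 (adjusted p = 0.114 and 0.108), control replicate 3 (0.109 and 0.0989), stimulated replicate 2 (0.0666 and 0.0652) or stimulated replicate 3 (0.124 and 0.1).

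Irx1, Irx2, Irx3, Irx5, Meox1, Meox2, Pitx1, Six2, Six4 and Six5 did not pass the test. Several of them varied with replicate number more than with stimulation. Meox2, known from vascular smooth muscle and endothelium, was at 132, 572 and 199 in controls and at 73, 222 and 88 after stimulation. In both groups replicate 2 was the highest library, and within each replicate number the stimulated library was lower, by 0.85, 1.36 and 1.17 on the log2 scale. The change of -1.13 ± 0.61 did not pass by limma (adjusted p = 0.282) and passed with the replicate block (0.00255). Its relative Meox1 was at 46, 107 and 71 and then at 73, 253 and 83 (0.70 ± 0.52, adjusted p = 0.432). Six5, of a family that acts with Eya proteins, was at 346, 510 and 446 and then at 353, 496 and 376 (-0.09 ± 0.19, adjusted p = 0.816). Irx3 was at 54, 134 and 44 and then at 29, 108 and 64 (-0.22 ± 0.58, adjusted p = 0.847 by limma).

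**Figure D4:**
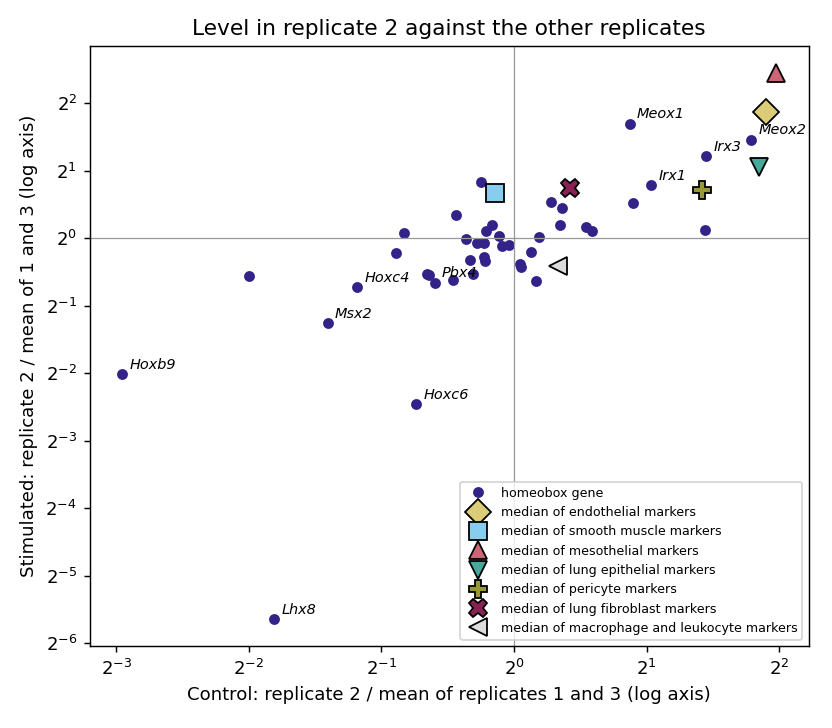
Level in replicate 2 divided by the mean of replicates 1 and 3, in controls (x axis) and stimulated samples (y axis), both on log scales, for homeobox genes with a mean of at least 10 and a value above 0 in each replicate 2 library. Larger symbols give the medians of 7 lists of cell type markers, and named genes differ by at least 1.5-fold in the same direction in both groups: Meox2, Irx3, Irx1 and Meox1 lie above 1 on both axes, as do endothelial, mesothelial, lung epithelial, pericyte and lung fibroblast markers, and Hoxb9 and Msx2 lie opposite.

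Replicate 2 stood apart in both groups for some members, and the same count was not made for replicates 1 and 3. Of the 47 members with a mean of at least 10, 4 were at least 1.5-fold higher in replicate 2 than the mean of replicates 1 and 3 in both groups: Irx1, Irx3, Meox1 and Meox2. Meox2 was higher by 3.46-fold in controls and 2.76-fold after stimulation, and Irx3 by 2.73-fold and 2.32-fold. Hoxb9, Hoxc4, Hoxc6, Lhx8, Msx2 and Pbx4 were at least 1.5-fold lower there in both groups. Hoxb9 was at 114, 10 and 41 in controls and at 118, 24 and 76 after stimulation. Endothelial markers were a median of 3.73-fold and 3.65-fold higher in replicate 2, and smooth muscle markers stood at 0.906 and 1.59 times the other replicates. Mesothelial markers (3.94 and 5.45 times), lung epithelial (3.61 and 2.08), pericyte (2.68 and 1.64) and lung fibroblast markers (1.34 and 1.67) were also higher there in both groups, and macrophage and leukocyte markers were at 1.26 and 0.75 times. The part of the cell types in these levels was not tested. Without both replicate 2 libraries, 13 homeobox genes were called, 10 of them higher, beside 11.1% of all genes (6.97% higher). In that fit Dlx1 (adjusted p = 0.0692 by limma), Dlx3 (0.0595), Hoxa4 (0.0686), Hoxa7 (0.0712) and Hoxb2 (0.0532) lost their calls. Hoxa2 (0.0416), Hoxc13 (0.0351) and Msx2 (0.0496) gained calls in it.

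Genes that work with homeobox proteins were taken from lists by function, and each list gives a small count. The share called was 33.3% for the TALE cofactors, 14.3% for cofactors of the family of Six4 and 9.09% for the LIM list. It was 20% for regulators of Hox genes and 11.1% for the retinoic acid pathway. Of all genes tested 13.4% were called, and of protein-coding genes 16.9%. Of 6 genes listed as TALE cofactors outside the rule, 2 rose and none fell. Pknox1, which encodes another partner of Pbx proteins, was at 1020, 967 and 1034 in controls and at 1426, 1403 and 1438 after stimulation (0.50 ± 0.08, adjusted p = 0.00889 by limma). Mkx, known from tendon, was at 136, 186 and 165 and then at 251, 353 and 255 (0.81 ± 0.19, adjusted p = 0.0371). Pknox1 was not called without stimulated replicate 3 (0.0542). Mkx was not called with equal library totals (0.0703) or without control replicate 1 (0.122), control replicate 3 (0.11) or any stimulated replicate (0.0573, 0.0783 and 0.101). Of 7 Eya, Dach and other cofactor genes of the family of Six4, Sobp alone rose: it was at 173, 161 and 151 and then at 224, 256 and 254 (0.59 ± 0.13, adjusted p = 0.0306 by limma). It passed without stimulated replicate 1 and lost its call without any other single library (0.0611 to 0.127) and with equal totals (0.0726).

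Of 11 LIM-domain cofactors and LIM genes outside the rule, 1 fell: Ldb1, the bridging cofactor of LIM-homeodomain proteins, was at 4698, 4552 and 4766 and then at 2928, 3388 and 2866 (a fall of 0.61, SE 0.09, adjusted p = 0.00682 by limma). Of 25 Polycomb, Trithorax and related regulators of Hox genes, 3 rose and 2 fell. Eed, a core Polycomb subunit, was at 626, 700 and 646 and then at 1279, 1384 and 1697 (1.13 ± 0.13, adjusted p = 0.00276), and Wdr5, a Trithorax subunit, rose by 0.73 ± 0.12 from 1187, 1225 and 1092 to 1737, 2264 and 1839. Cbx7, a Polycomb reader of histone methylation, was at 312, 331 and 294 and then at 181, 130 and 127, and fell by 1.11 (SE 0.17, adjusted p = 0.00886). Wdr5 was not called without control replicate 3 (0.0535), nor Cbx7 without stimulated replicate 3 (0.0508) or without both replicate 2 libraries (0.055). Of 18 genes of the retinoic acid pathway, an upstream input to Hox clusters in embryos, 2 rose and none fell. The receptor gene Rara was at 876, 1008 and 907 and then at 2121, 1759 and 1933 (1.06 ± 0.10, adjusted p = 0.0019). Aldh1a3, which makes retinoic acid, was at 151, 339 and 199 and then at 890, 3182 and 1636 (2.94 ± 0.48, adjusted p = 0.0106), a call lost without control replicate 3 (0.0519) or stimulated replicate 3 (0.0599).

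Of 64 homeobox genes of other families, 4 rose and 5 fell, with a median change of 0.06. Thus 14.1% were called, beside 13.4% of all genes tested. Phox2a, a regulator of autonomic neurons, was at 4, 6 and 4 in controls and at 62, 85 and 50 after stimulation (3.54 ± 0.33, adjusted p = 0.00151 by limma). Cux1 was at 3442, 2934 and 3012 and then at 4775, 5617 and 5203 (0.73 ± 0.10, adjusted p = 0.00547). Tshz1 was at 2154, 1710 and 2069 and then at 1079, 1222 and 1182, and fell by 0.76 (SE 0.11, adjusted p = 0.00747). The list of BMP response genes, chosen with results of these data known, had 13 rises and no fall among 15, with a median change of 2.30.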

How the data were processed

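Sequencing covered 3 control and 3 stimulated samples, and the kit for total RNA keeps strand, per the labels' protocols. The submitters' processing notes list the builds hg38, GRCh38 and mm10 and the tools STAR 2.6.1d, Trimmomatic 0.38, DESeq2 1.18.1 and featureCounts 1.6.3. The deposited score is read from its values as a read count that the authors multiplied by 1 factor per library and rounded: whole numbers are skipped in 4 of the 6 columns. A count model was not used. Gene identifiers were matched to GENCODE M21 (21747 of 21785 rows).

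Treatment was the only term of a limma 3.58.1 fit (R 4.3.3, intensity trend, 4 residual degrees of freedom) to log2(value + 1), over 21743 genes whose mean reached 1. The fit was also run on simulated libraries of equal depth without a replicate effect, in which no low gene was changed. That run therefore does not cover low genes or differences between replicates. The members and gene lists were chosen with earlier results of these data known. By rule the text names members with an adjusted p under 0.1, the highest and the most changed member of each family, and up to 3 called genes per list; 4 members are counted in totals over all members but are not reported here; other members complete their families, and antisense genes were named after their values were seen. Levels per kilobase use the union of annotated exons.

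Whether the replicate numbers pair the samples was checked on deviations from group means in the 13185 genes whose mean reached 50. Same-numbered control and stimulated libraries correlated by 0.747, 0.741 and 0.218, above the limit of 0.1 in each pair. The replicate number was therefore fitted as a block in an alternative, although its meaning is not labelled. The main fit had no such term. Control replicate 3 correlated more with stimulated replicate 1 (0.287) than with its own number. Control replicate 1 correlated by -0.714 with stimulated replicate 2, and control replicate 2 by -0.725 with stimulated replicate 1. Deviations from a group mean cancel within the group, so these correlations are not independent checks of a pairing. The 18 alternatives were other pseudocounts, filters, scalings and limma variants, the replicate block and leaving out libraries.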

Additional observations from a re-analysis of the deposited data

How the results depend on the processing

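Lhx4, Meis1, Meis2 and Prrx2 passed in each of the 18 alternatives. The number of homeobox genes called was 5 to 15 when 1 library was left out and 11 to 24 in the other alternatives. Over all genes, the count of 2905 became 1610 without the intensity trend, 5837 with the replicate block, 6958 with equal library totals and the replicate block, and 917 to 2384 when 1 library was left out; over the gene lists by function the count of 33 became 55, 67 and 18 to 32 in the last 3 of these. The replicate block changed the call of 5 of the 58 members (Hoxa2, Hoxc13, Msx2, Pbx2 and Meox2) and of no other member. Among the 64 homeobox genes of other families, 6 were called higher and 11 lower with it, beside 14.9% and 12% of all genes. Among members named here, signs changed only for some that did not pass. When 1 library was left out, Hoxc4 reached -0.61 to 0.16, Irx3 -0.65 to 0.28, Irx1 -0.13 to 0.63 and Six5 -0.24 to 0.040. The cause was not tested. Low values limit Dlx3, Dlx5 and Hoxc13, whose controls include libraries at 0. They also limit the size of the change of Lhx4, whose controls were at 1, 3 and 3.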
